A study of Mus musculus with 24 samples.

Results

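Of 17097 mouse genes measured on the arrays, 10 genes of the gate from the first gap phase (G1) into DNA synthesis are described here. They are the inhibitor genes Cdkn2a, Cdkn2b, Cdkn2c and Cdkn1b, the retinoblastoma gene Rb1, the D-type cyclin genes Ccnd1, Ccnd2 and Ccnd3, and the kinase genes Cdk4 and Cdk6. They were chosen by symbol, and each was read from the probe set, a group of short probes to 1 transcript, with the highest mean over 24 arrays; the 10 genes had 24 probe sets in all.

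The samples are 24 tumours excised from the mouse cortex, each grown from cells that expressed 1 of 3 introduced genes, called the class gene: 6 tumours carried RAB3A, 9 carried BC74C and 9 carried ZNF668. A second label gives the tumour type: EPENDYMOMA in 11, HGG in 4 (not spelled out in the labels), TUMOR in 5 and UNKNOWN in 4. The labels give no genotype, strain, age, promoter or cell of origin, all 24 samples are tumours with no normal cortex beside them, and tumours are numbered here in the order of deposit. Nothing says that the tumours came from separate animals, so the p-values measure only the spread between these samples. Titles start with 1 of 2 prefixes, elw in 18 tumours and mmr in 6, whose meaning is not given in the sources used here. RAB3A has no HGG tumour, so HGG and EPENDYMOMA tumours can be set side by side within a class gene only in BC74C and ZNF668.

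The D cyclins bind CDK4 and CDK6, and the active kinases phosphorylate the retinoblastoma protein, which then releases E2F factors that switch on genes of DNA replication. The INK4 inhibitors, encoded by Cdkn2a, Cdkn2b and Cdkn2c, block CDK4 and CDK6, and the CIP/KIP inhibitor encoded by Cdkn1b restrains CDK2. Cdkn2a also encodes ARF, which stabilises p53 through MDM2, and loss of the Cdkn2a and Cdkn2b region is frequent in brain tumours. Mouse models of ependymoma have been built from neural stem cells that lack Cdkn2a, a point the labels of these samples do not give.

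The values are log2 intensities that the submitters had normalized, and a difference of 1 on this scale is a 2-fold change. The median of all probe sets lay between 4.98 and 5.20 on the 24 arrays. These medians come after normalization, so they cannot show whether an array stood apart before it. Genes entered the tests when their mean reached 3.76, the 30th percentile of all probe sets, which 13218 genes did, 9 of the 10 described here among them. The mature neuron score, the mean log2 value of 18 measured neuron genes of 21 listed, ran from 4.89 to 10.02 over the tumours, and the mitosis score, over 19 of 20 listed genes, from 4.39 to 9.10. The 11 measured ependymal genes of 12 listed averaged 5.47 ± 0.36 (SD, n = 11) in the tumours labelled EPENDYMOMA, against 5.35 ± 0.35 (SD, n = 4) in those labelled HGG, with overlapping ranges of 5.05 to 6.31 and 4.92 to 5.75.

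The sequences around the starts of the locus genes and of both kinases are given first, because the locus and the kinases are the genes the results turn on. Each line is the 250 bases before a transcript start of the RefSeq annotation (GRCm38.p6), 5′ to 3′ on the gene's strand. Capitals mark a match on either strand to 1 of 3 motifs, which do not share letters with one another here: the E-box CACGTG that MYC and related factors bind, TTTNGCGC, a form of the E2F site, and the GC-box GGGCGG that SP1 binds. Cdkn2a has 2 starts on the minus strand, upstream at chr4:89294620-89294869, from which the ARF transcript begins, and downstream at chr4:89282193-89282442, from which the INK4A transcript begins. Cdkn2b lies on the minus strand with its window at chr4:89311033-89311282. Cdk4 and Cdk6 are on plus strands, with windows at chr10:127063285-127063534 and chr5:3343643-3343892.
Cdkn2a upstream start: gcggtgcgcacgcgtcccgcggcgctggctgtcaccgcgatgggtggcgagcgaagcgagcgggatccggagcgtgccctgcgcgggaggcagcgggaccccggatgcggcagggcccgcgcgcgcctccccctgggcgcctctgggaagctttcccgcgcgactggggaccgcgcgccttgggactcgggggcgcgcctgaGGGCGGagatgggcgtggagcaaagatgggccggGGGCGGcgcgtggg
Cdkn2a downstream start: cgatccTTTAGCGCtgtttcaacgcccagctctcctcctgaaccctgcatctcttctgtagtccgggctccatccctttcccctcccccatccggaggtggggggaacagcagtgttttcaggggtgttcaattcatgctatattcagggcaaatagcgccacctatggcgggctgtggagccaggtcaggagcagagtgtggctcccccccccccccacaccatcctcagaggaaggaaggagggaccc
Cdkn2b: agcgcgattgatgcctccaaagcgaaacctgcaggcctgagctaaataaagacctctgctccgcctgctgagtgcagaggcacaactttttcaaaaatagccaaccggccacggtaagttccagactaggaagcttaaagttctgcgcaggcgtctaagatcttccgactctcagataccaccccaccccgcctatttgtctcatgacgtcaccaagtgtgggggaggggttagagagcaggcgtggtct
Cdk4: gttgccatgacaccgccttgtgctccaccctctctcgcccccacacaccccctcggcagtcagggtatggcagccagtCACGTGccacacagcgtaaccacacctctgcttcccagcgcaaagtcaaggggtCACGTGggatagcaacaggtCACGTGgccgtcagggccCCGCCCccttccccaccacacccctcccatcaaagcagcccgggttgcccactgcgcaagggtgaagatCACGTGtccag
Cdk6: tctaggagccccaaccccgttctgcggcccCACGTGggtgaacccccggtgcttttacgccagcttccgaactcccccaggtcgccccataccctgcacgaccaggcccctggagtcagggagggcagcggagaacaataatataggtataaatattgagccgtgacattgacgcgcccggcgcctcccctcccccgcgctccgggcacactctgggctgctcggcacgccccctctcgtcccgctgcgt

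The Cdk4 window held 4 E-boxes. Of 32851 windows of this length in the table, 1978 (6.02%) held at least 1 E-box, and 7 (0.0213%) held 4 or more. The Cdk6 window held 1 E-box and no other match. The downstream Cdkn2a window held 1 match to TTTNGCGC, a motif found in 1.13% of all windows, and the upstream one held 2 GC-boxes, a motif found in 32.7%. None of the 3 motifs was found in the Cdkn2b window. A match is a string of letters and was not tested as a binding site. Windows were also present for Cdkn2c, Cdkn1b and Ccnd3, so 7 of the 10 genes matched; Ccnd1, Ccnd2 and Rb1 did not.

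Cdkn2a was at the level of genes that a brain tumour is not known to use. Its single probe set ran from 2.81 in ZNF668 replicate 6 through a median of 3.14 to 4.16 in BC74C replicate 4, with a mean of 3.18 ± 0.29 (SD, n = 24). By class gene it averaged 3.09 ± 0.21 in RAB3A (SD, n = 6), 3.28 ± 0.37 in BC74C (SD, n = 9) and 3.14 ± 0.23 in ZNF668 (SD, n = 9), and the groups overlapped. Of 40 measured genes restricted to other organs, such as pancreas, testis and skin, 12 had a lower mean, and of 39 olfactory receptor genes 13 did. Set against the reference genes on the same array, Cdkn2a exceeded the median of the organ-restricted genes in 4 of 24 tumours and their 95th percentile in 0. Against the tighter range of olfactory receptors, BC74C replicate 4 was the 1 tumour above the 95th percentile on its own array, and it was also above 3.87, that percentile of the 39 means. Of all probe sets on the array, 9.12% had a lower mean. A value here does not show that the gene is missing: different probes bind with different strength, and which exons this probe set reads is not given in the sources used here, so it checks no genotype. The gene fell below the filter and so was not among the 13218 genes of the main tests; in limma's fit of all probe sets RAB3A minus ZNF668 was -0.05, RAB3A minus BC74C -0.19 and BC74C minus ZNF668 0.14, with adjusted p of 0.941, 0.745 and 0.916.

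Of its neighbours on chromosome 4, Mtap, Cdkn2b and the more distant Elavl2 were above the olfactory receptor means in every tumour. Mtap, which encodes an enzyme of methionine salvage and is often lost together with CDKN2A, ran from 7.47 to 9.72 with a mean of 8.67 ± 0.71 (SD, n = 24). Cdkn2b, on the other side, ran from 6.62 in RAB3A replicate 5 through a median of 8.97 to 10.21 in ZNF668 replicate 8. The olfactory receptor means ran from 2.92 to 4.24. Beyond them the interferon genes Ifna1 and Ifna4 averaged 3.41 and 3.27, and the zinc finger gene Zfp352 averaged 3.59. Dmrta1, a transcription factor gene beside Cdkn2b, had a median of 3.42 but reached 5.73 in ZNF668 replicate 7. Elavl2, which encodes a neuronal RNA-binding protein, averaged 8.96 and ran from 6.63 to 10.95. In bulk tumours fewer cells that express a gene and less RNA per cell cannot be told apart.

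**Figure D1:**
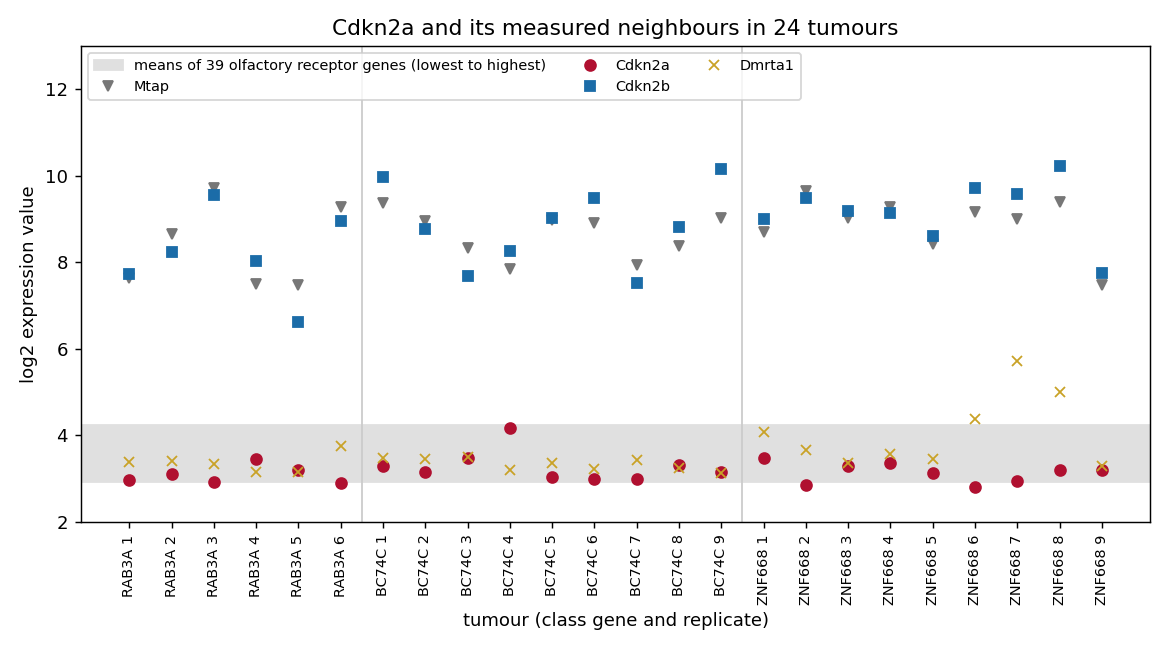
Log2 expression value (y axis) of Cdkn2a, Cdkn2b, Mtap and Dmrta1 in each of 24 tumours (x axis, grouped by class gene); the grey band spans the lowest to the highest mean of 39 olfactory receptor genes. Cdkn2a lies in or just below the band, from 2.81 to 4.16, while Cdkn2b stays between 6.62 and 10.21 and Mtap between 7.47 and 9.72.

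The other 8 genes apart from Cdk6 had means above every organ-restricted reference gene, whose highest mean was 7.81. Cdk6 had a mean of 5.96, above 37 of the 40 (92.5%) and above all 39 olfactory receptor means. On the same array it was above the 95th percentile of the organ-restricted genes in 6 of 24 tumours. Against that percentile of the olfactory receptor genes it was above in 24 of 24. The reference genes were used only to gauge background. The organ-restricted genes are an uneven gauge: Csn2 and Krt10 averaged 7.81 and 7.78, and 13 of the 40 passed the filter. The levels of different genes are not ranked, since each has its own probes.

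Among the inhibitors, Cdkn2b, which encodes INK4B, had its lowest mean in RAB3A tumours. It ran from 6.62 through a median of 8.13 to 9.55 in RAB3A, from 7.51 through 8.81 to 10.16 in BC74C, and from 7.74 through 9.19 to 10.21 in ZNF668. The 3 groups overlapped, and RAB3A replicate 5 was the lowest of all. RAB3A minus ZNF668 was -1.002 (SE 0.44, 95% interval -1.91 to -0.10), with adjusted p = 0.529 in limma's moderated test. The difference did not pass, and without RAB3A replicate 5 it was -0.69.

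Cdkn2c, which encodes INK4C, spread more within class genes than between them. It ran from 6.65 to 8.66 in RAB3A, from 6.997 to 8.91 in BC74C and from 5.94 to 9.06 in ZNF668, with medians of 7.89, 8.01 and 7.59. The largest difference of class means was 0.20, against a within-group SD of 0.79. Cdkn1b, which encodes KIP1, varied least among the inhibitors above background, from 8.12 in RAB3A replicate 5 to 9.68 in BC74C replicate 6. Its BC74C minus ZNF668 difference was 0.31 (SE 0.17), with adjusted p = 0.844 in limma. Its second probe set averaged 4.10 and followed the first poorly (r = 0.16 over 24 tumours), so the level of Cdkn1b rests on 1 probe set.

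Rb1, which encodes the substrate of the CDK4 and CDK6 kinases, was measured in every tumour between 8.58 in ZNF668 replicate 9 and 10.06 in ZNF668 replicate 3. Its medians were 9.32 in RAB3A, 9.31 in BC74C and 9.45 in ZNF668, and the groups overlapped. The largest difference, BC74C minus ZNF668, was -0.30 (SE 0.18, 95% interval -0.67 to 0.07), with adjusted p = 0.856 in limma. A second Rb1 probe set averaged 3.27, below the filter.

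Among the cyclins, Ccnd1 and Ccnd2 had their lowest means in RAB3A tumours, and Ccnd3 did not share this order. Ccnd1, cyclin D1, ran from 8.55 through a median of 10.06 to 12.08 in RAB3A, from 9.94 through 11.44 to 12.40 in BC74C, and from 10.16 through 11.39 to 12.48 in ZNF668. The lowest tumour was RAB3A replicate 5, yet RAB3A replicate 3 at 12.08 was among the highest of all, so the groups overlapped. RAB3A minus ZNF668 was -1.03 (SE 0.46, 95% interval -1.99 to -0.08), with adjusted p = 0.534 in limma, and it was -0.69 without RAB3A replicate 5. RAB3A minus BC74C was -0.90 (SE 0.46), with adjusted p = 0.619 in limma, and -0.55 without that tumour.

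Ccnd2, cyclin D2, ran from 9.50 through a median of 10.22 to 12.03 in RAB3A, from 10.04 through 11.18 to 12.11 in BC74C, and from 9.97 through 11.28 to 11.95 in ZNF668. In RAB3A 5 of the 6 tumours were at or below 10.42, and replicate 3 stood alone at 12.03. RAB3A minus BC74C was -0.86 (SE 0.40, 95% interval -1.69 to -0.03), with adjusted p = 0.585 in limma. All 3 probe sets of Ccnd1 moved together over the tumours (r of 0.98 and 0.94 with the first), as did the 6 of Ccnd2 (0.82 to 0.96). Ccnd3, cyclin D3, had medians of 7.96, 8.19 and 8.33 in RAB3A, BC74C and ZNF668 and ran from 6.69 to 9.02. Its largest class difference was -0.22 (BC74C minus ZNF668, SE 0.28), with adjusted p = 0.972 in limma, and from -0.41 to -0.09 with 1 tumour left out. The second Ccnd3 probe set averaged 5.91 and followed the first poorly (r = 0.25). On it RAB3A minus ZNF668 was 0.40, against -0.13 on the first. BC74C minus ZNF668 (-0.26) and RAB3A minus BC74C (0.65) had the same sign on both.

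Cdk4 ran from 8.55 through a median of 9.06 to 10.51 in RAB3A, from 8.65 through 10.07 to 10.70 in BC74C, and from 8.27 through 10.07 to 10.90 in ZNF668. RAB3A minus ZNF668 was -0.63 (SE 0.38, 95% interval -1.41 to 0.15), with adjusted p = 0.559 in limma. RAB3A minus BC74C was -0.59 (SE 0.38), with adjusted p = 0.694 in limma. Its 3 probe sets followed one another closely (r of 0.98 and 0.99 with the first).

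**Figure D2:**
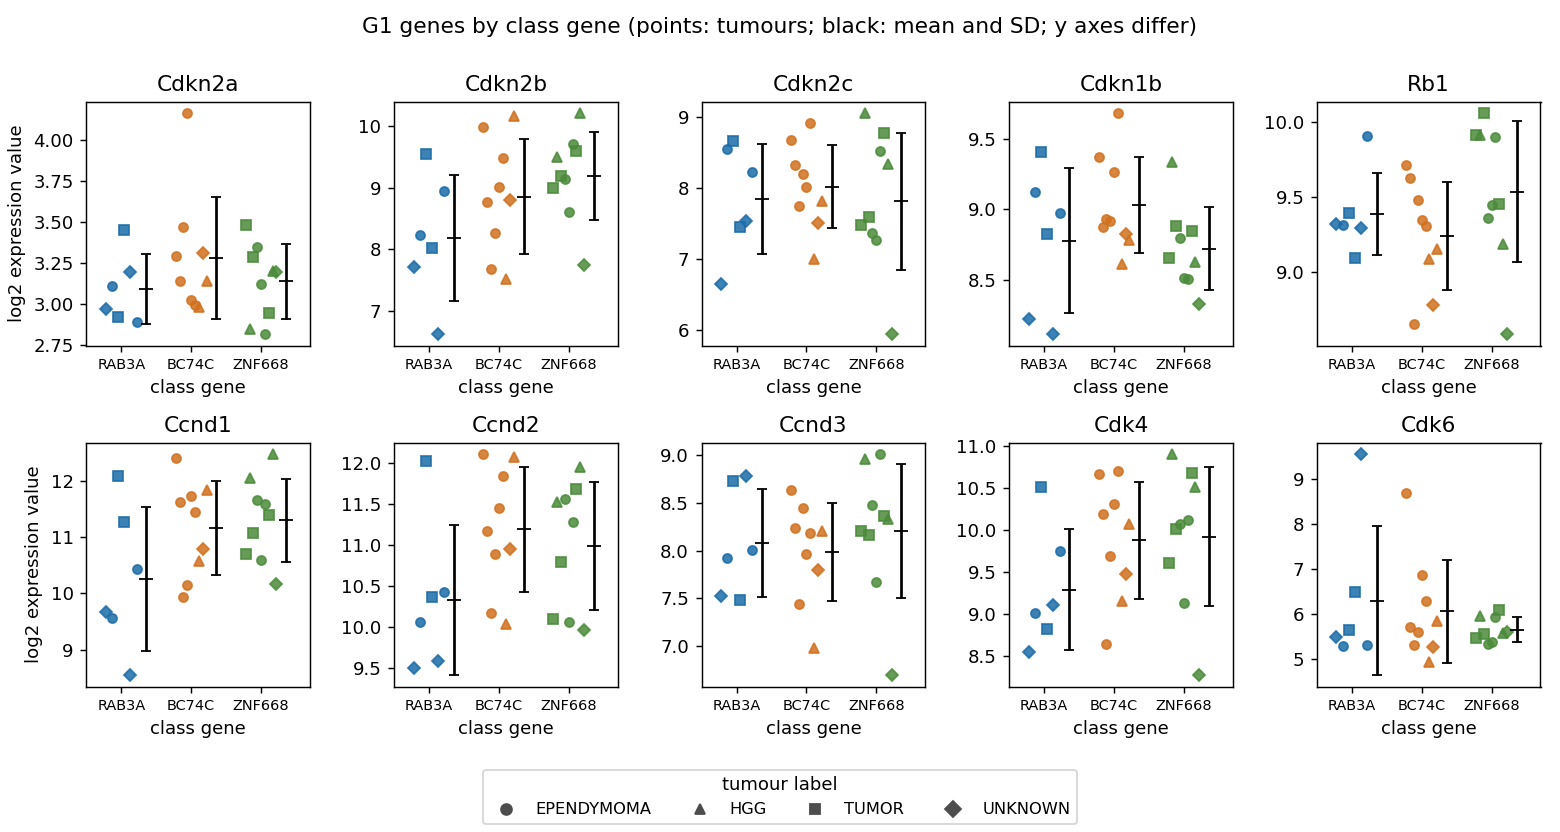
Log2 expression value (y axes, each with its own scale) of the 10 genes in tumours grouped by class gene (x axes); each point is 1 tumour, its shape the tumour label, and the black bar the mean with SD. In every panel the groups overlap, the RAB3A means of Cdkn2b, Ccnd1, Ccnd2 and Cdk4 are the lowest of the 3, and single tumours stand high for Cdk6 (9.55 and 8.68).

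Cdk6 differed from Cdk4 in that 2 tumours stood far above the others. RAB3A replicate 5, labelled UNKNOWN, was at 9.55 and BC74C replicate 1, labelled EPENDYMOMA, at 8.68, while the other 22 tumours lay between 4.92 and 6.85 with a median of 5.58. These values are 15.7-fold and 8.58-fold above that median. A second probe set gave 10.02 and 8.53 against 4.27 to 6.44 in the other 22, and the third, which was dim, 4.63 and 3.96 against 3.12 to 3.80. The same 2 tumours thus stood above the other 22 on all 3 probe sets.

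Nearby genes, chosen after their values were seen, did not show the same 2 tumours apart from the rest. Fam133b, the next measured gene on chromosome 5, ran from 8.16 to 9.02; BC74C replicate 1 was its lowest tumour and RAB3A replicate 5 its highest. Rbm48, further along, was at 7.14 in RAB3A replicate 5 and 6.56 in BC74C replicate 1, within its range of 6.17 to 7.45. The dim gene 1700109H08Rik between them was at 3.53 and 3.74, below its highest value of 4.68.

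In the other G1 genes the 2 tumours were alike in Ccnd3 (8.78 in RAB3A replicate 5 and 8.63 in BC74C replicate 1, ranks 3 and 5 of 24) and in Cdkn2a (3.20 and 3.29), and they differed in the D1 and D2 cyclins and in Cdkn2b and Cdkn1b. BC74C replicate 1 had the highest Ccnd2 (12.11) and the second highest Ccnd1 (12.40) of the 24, whereas RAB3A replicate 5 had the lowest Ccnd1 (8.55), the lowest Cdkn2b (6.62) and the lowest Cdkn1b (8.12). Their mitosis scores were similar, 8.41 in RAB3A replicate 5 and 8.29 in BC74C replicate 1, against a median of 7.12. RAB3A replicate 5 also had the highest T and NK cell score, over 10 measured genes of 11 listed, at 4.84 against a median of 3.88. Only 6 of those 10 genes passed the filter, and the median score is close to the filter value of 3.76. The same tumour had the lowest oligodendrocyte progenitor score, over 9 of 11 genes, at 7.18 against 8.85. The T and NK cell score ran from 3.67 to 4.84 in RAB3A, from 3.83 to 4.28 in BC74C and from 3.74 to 4.15 in ZNF668, and it was 3.93 in BC74C replicate 1. Whether such cells have a part in the Cdk6 value was not tested. Cdk6 had its highest class mean in RAB3A (6.29 ± 1.66, SD, n = 6), an order that rested on RAB3A replicate 5. RAB3A minus ZNF668 was 0.64 (SE 0.55) with adjusted p = 0.649 in limma. It was -0.01 without RAB3A replicate 5 and also -0.01 without both tumours. RAB3A minus BC74C was 0.24, and -0.42 without RAB3A replicate 5.

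**Figure D3:**
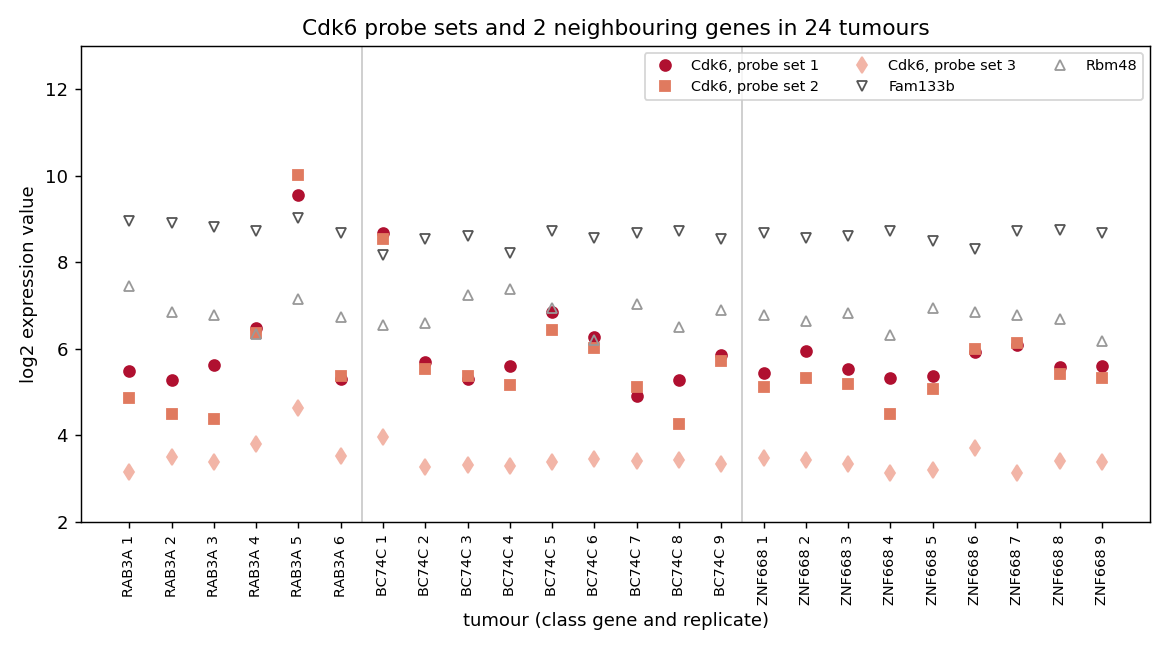
Log2 expression value (y axis) of the 3 Cdk6 probe sets and of the neighbouring genes Fam133b and Rbm48 in each of 24 tumours (x axis, grouped by class gene). RAB3A 5 and BC74C 1 stand above the other 22 tumours on each Cdk6 probe set, at 9.55 and 8.68 on the first, and not on the neighbours.

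No G1 gene passed an adjusted p of 0.05 between class genes. For RAB3A minus ZNF668 limma called 0 of 9 tested genes after adjustment, where it called 0.0757% of all genes, and 2 of 9 (Cdkn2b and Ccnd1) at an unadjusted p under 0.05, where it called 9.21% of all genes. BC74C minus ZNF668 gave 0 of 9 under both rules, against 0.303% and 6.88% of all genes. For RAB3A minus BC74C 0 of 9 passed after adjustment, against 0% of all genes, and 1 of 9 (Ccnd2) without it, against 8.21%. The test for any difference among the 3 class genes gave 0 of 9 under both rules, against 0.31% and 8.97% of all genes. Difference intervals reached 1.99 in size for Ccnd1 and 1.91 for Cdkn2b, so differences of that size are not excluded. The median difference of the 9 genes was -0.15 in RAB3A minus ZNF668, beside -0.04 over all genes tested.

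The differences of RAB3A tumours that had an unadjusted p under 0.05 in limma, for Cdkn2b, Ccnd1 and Ccnd2, kept their sign under both prefixes. They were picked by that p over the same tumours, so the shared sign is not a separate check. Some other differences did not keep it: RAB3A minus BC74C for Cdk6 was -0.36 in the elw tumours and 1.59 in the mmr tumours. RAB3A minus ZNF668 for Cdkn2c was -0.05 in the elw tumours and 0.20 in the mmr tumours. For Cdkn2b, RAB3A minus ZNF668 was -0.81 in the elw tumours and -1.40 in the mmr tumours. For Ccnd1 the same values were -0.63 and -1.85, and for Ccnd2, RAB3A minus BC74C was -0.59 and -2.07. The mmr values set 2 RAB3A tumours, replicate 5 among them, beside 3 ZNF668 tumours and 1 BC74C tumour. Without replicate 5 they were -0.23 for Cdkn2b, -0.90 for Ccnd1 and -1.65 for Ccnd2, each resting on 1 RAB3A tumour, so the mmr value of Cdkn2b rests largely on replicate 5. With the mitosis and mature neuron scores as covariates, RAB3A minus ZNF668 was -0.37 for Cdkn2b and -0.50 for Ccnd1. For Cdk4, which was not among the differences picked by p, it was -0.11 with the covariates and -0.63 without. RAB3A tumours had a mature neuron score of 8.94 ± 1.05 (SD, n = 6), against 7.72 ± 1.48 in ZNF668 (SD, n = 9), with ranges of 7.31 to 10.02 and 4.89 to 9.58; the part of the score in the differences was not tested beyond these fits.

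**Figure D4:**
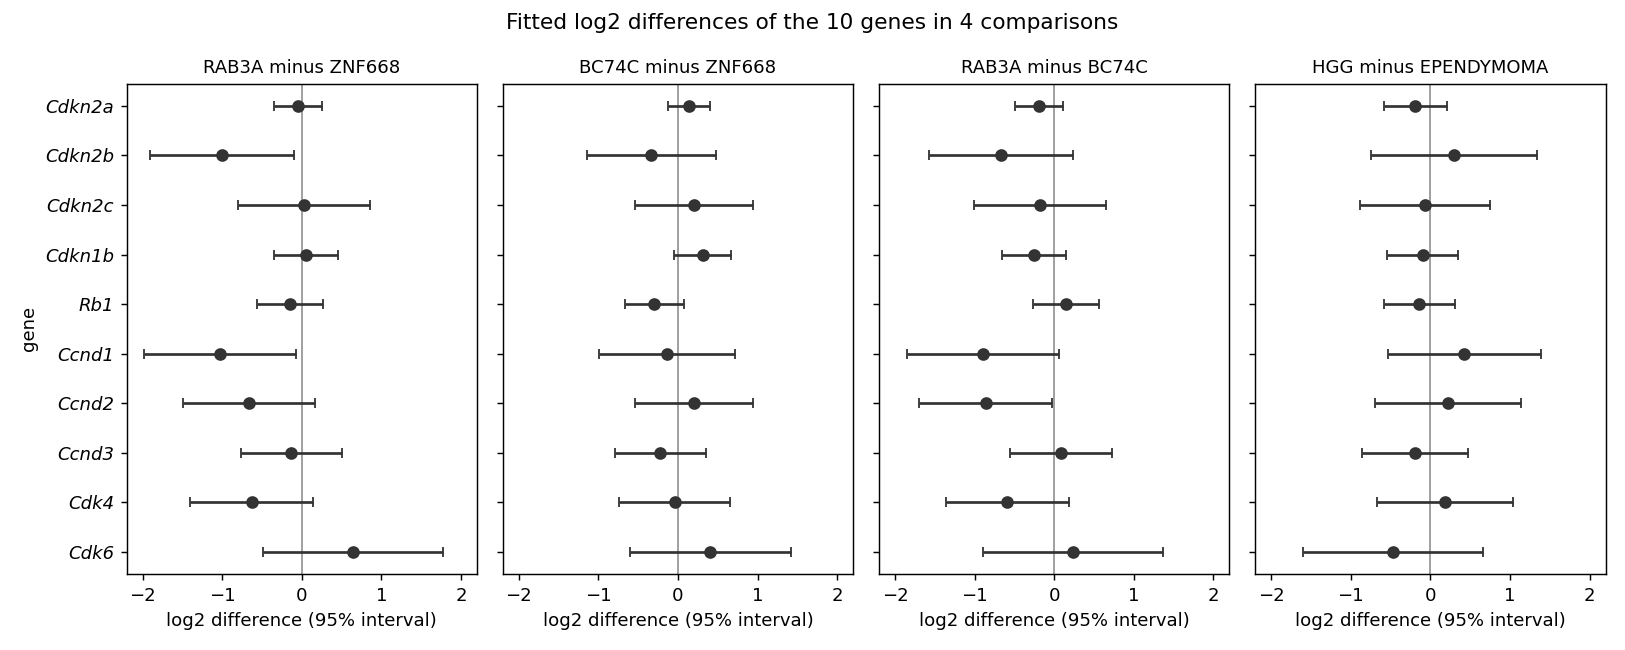
Fitted log2 differences (x axes, with 95% intervals from limma) of the 10 genes (y axis) in 4 comparisons. Most intervals cross 0; those of Cdkn2b and Ccnd1 for RAB3A minus ZNF668 (-1.91 to -0.10 and -1.99 to -0.08) and of Ccnd2 for RAB3A minus BC74C (-1.69 to -0.03) do not, and none of the differences passed the adjusted threshold.

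HGG and EPENDYMOMA tumours did not separate on any of the genes. Ccnd1 was at 10.57 and 11.82 in the HGG tumours of BC74C and at 12.04 and 12.48 in those of ZNF668, against a range of 9.56 to 12.40 in EPENDYMOMA. Fitted with the class gene as a covariate, HGG minus EPENDYMOMA was 0.43 (SE 0.45), with adjusted p = 1 in limma; it was 0.83 without BC74C replicate 7, and 0.25 without ZNF668 replicate 5 or replicate 8. Cdk4 was at 9.16 and 10.07, and at 10.90 and 10.51, against 8.65 to 10.70, with a difference of 0.19 (SE 0.40) and adjusted p = 1 in limma. Without BC74C replicate 7 the Cdk4 difference was 0.56, without ZNF668 replicate 2 -0.03, without ZNF668 replicate 5 -0.0036, without BC74C replicate 3 0.05 and without ZNF668 replicate 8 0.10. Limma called 0 of 9 genes after adjustment and 0 of 9 without it, against 0% and 1.73% of all genes. The sign of several of these differences turned when the title prefix was held: Cdkn2b went from 0.30 to -0.38 with the prefix as a block and to -0.56 in the elw tumours, and Ccnd2 from 0.22 to -0.25 and -0.40. The mmr tumours hold 1 EPENDYMOMA, in RAB3A, so no value could be fitted within them.

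For Cdkn2c, Cdkn1b and Cdk6 both HGG tumours lay below the EPENDYMOMA mean of their class gene in BC74C and above it in ZNF668. The share of all genes with this pattern was not counted, so it does not set the 3 genes apart. Both HGG tumours of BC74C had less Cdkn2c (6.997 and 7.82) than the mean of its EPENDYMOMA tumours (8.31), and both of ZNF668 had more (9.06 and 8.35 against 7.72). The difference of the differences was -1.89 (SE 0.61, 95% interval -3.22 to -0.57), with adjusted p = 0.591 in limma. For Cdkn1b the values were 8.62 and 8.78 against 9.17 in BC74C, and 9.34 and 8.63 against 8.61 in ZNF668. Its difference of differences was -0.85 (SE 0.38), with adjusted p = 0.597 in limma, and -0.49 without ZNF668 replicate 2. Limma called 0 of 9 genes after adjustment, against 0% of all genes, and 2 of 9 (Cdkn2c and Cdkn1b) without it, against 8.16%. For Cdk6 the HGG values were 4.92 and 5.85 against 6.401 in BC74C, where the high BC74C replicate 1 is among the EPENDYMOMA tumours, and 5.95 and 5.57 against 5.54 in ZNF668. Its difference of differences was -1.24 (SE 1.08), with adjusted p = 0.72 in limma, and it was -0.78 without BC74C replicate 1 and -0.77 without BC74C replicate 7.

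Over all 24 tumours Cdk4 had the highest r with the mitosis score among the 10 genes. Mitosis genes such as Mki67, Top2a and Plk1 mark dividing cells, and none of the 10 genes is in that list. Pearson's r was 0.82 (permutation p = 1e-05, Spearman's rho 0.84) and adjusted p was 0.0001 over the 20 relations of 10 genes with 2 scores. Here 1e-05 is the smallest p that 100000 permutations can give. The relation was r = 0.79 with the 2 most extreme mitosis scores left out, 0.90 in the elw tumours and 0.73 in the 6 mmr tumours. Within the prefixes other genes were higher, Ccnd2 at 0.91 in the elw tumours and Ccnd3 at 0.84 in the mmr tumours. Ccnd2 had r = 0.75 (rho 0.71, adjusted permutation p = 0.000286), Ccnd3 r = 0.72 (rho 0.76, adjusted permutation p = 0.000286) and Cdkn2c r = 0.68 (rho 0.69, adjusted permutation p = 0.000622). With the same 2 tumours left out these were 0.70, 0.72 and 0.75.

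For Ccnd1 and Cdkn2b r with mitosis was higher without RAB3A replicate 5, a tumour left out after seeing the data. It had the lowest value of both genes and a high mitosis score, so a higher r without it was fixed in advance. Ccnd1 had r = 0.56 (rho 0.63, adjusted permutation p = 0.00842) over all tumours and 0.82 without RAB3A replicate 5, which combined the lowest Ccnd1 with a mitosis score of 8.41. Cdkn2b had r = 0.53 (rho 0.63, adjusted permutation p = 0.0146) and 0.76 without it. Cdkn2b, although an inhibitor of CDK4 and CDK6, thus tracked mitosis in the same direction as the cyclins. With the 2 most extreme mitosis scores left out r was 0.45 for Ccnd1 and 0.47 for Cdkn2b, and in the 6 mmr tumours, RAB3A replicate 5 among them, 0.28 and 0.29. Cdk6 had r = 0.46 but rho = 0.61 (adjusted permutation p of 0.025 and 0.00309), and its r was 0.44 without them.

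Rb1, Cdkn1b and Cdkn2a did not pass with the mitosis score. With the mitosis score r was 0.26 for Rb1, 0.35 for Cdkn1b and -0.18 for Cdkn2a, with adjusted permutation p of 0.234, 0.109 and 0.434. The Cdkn1b value was 0.50 without RAB3A replicate 5 (adjusted permutation p = 0.0228). Ccnd3 rested on its first probe set: with the mean of its 2 probe sets r with mitosis was 0.11 (adjusted permutation p = 0.636).

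The mature neuron score gave the mirror image, and it was itself inversely related to the mitosis score (r = -0.75, rho = -0.78, permutation p = 3e-05). Cdk4 had r = -0.85 (rho -0.89, adjusted permutation p = 0.0001), Cdkn2b -0.79 (rho -0.84), Ccnd2 -0.77 (rho -0.80), Cdkn2c -0.72 (rho -0.81), Ccnd1 -0.68 (rho -0.71) and Ccnd3 -0.61 (rho -0.67). Adjusted permutation p-values of the last 5 were between 0.0001 and 0.00296. Leaving out the 2 most extreme neuron scores gave -0.85 for Cdk4, -0.83 for Cdkn2b and -0.80 for Ccnd2, and the 6 mmr tumours gave -0.90, -0.79 and -0.83. Tumours with more neuronal transcript thus tended to have less of these G1 transcripts. Rb1 and Cdkn1b also passed, at r = -0.46 (rho -0.50) and -0.45 (rho -0.49), with adjusted permutation p of 0.0337 and 0.0347, and Cdkn1b no longer did without RAB3A replicate 5 (r = -0.42, adjusted permutation p = 0.0564). Cdk6 passed by rank (rho = -0.52, adjusted permutation p = 0.0153) and not by r (-0.13). How far the relations follow the share of tumour cells in the excised tissue was not tested. The share of all genes that pass with either score was not tested either. The relations with mitosis and with the neuron score are thus not shown to be particular to the G1 genes.

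**Figure D5:**
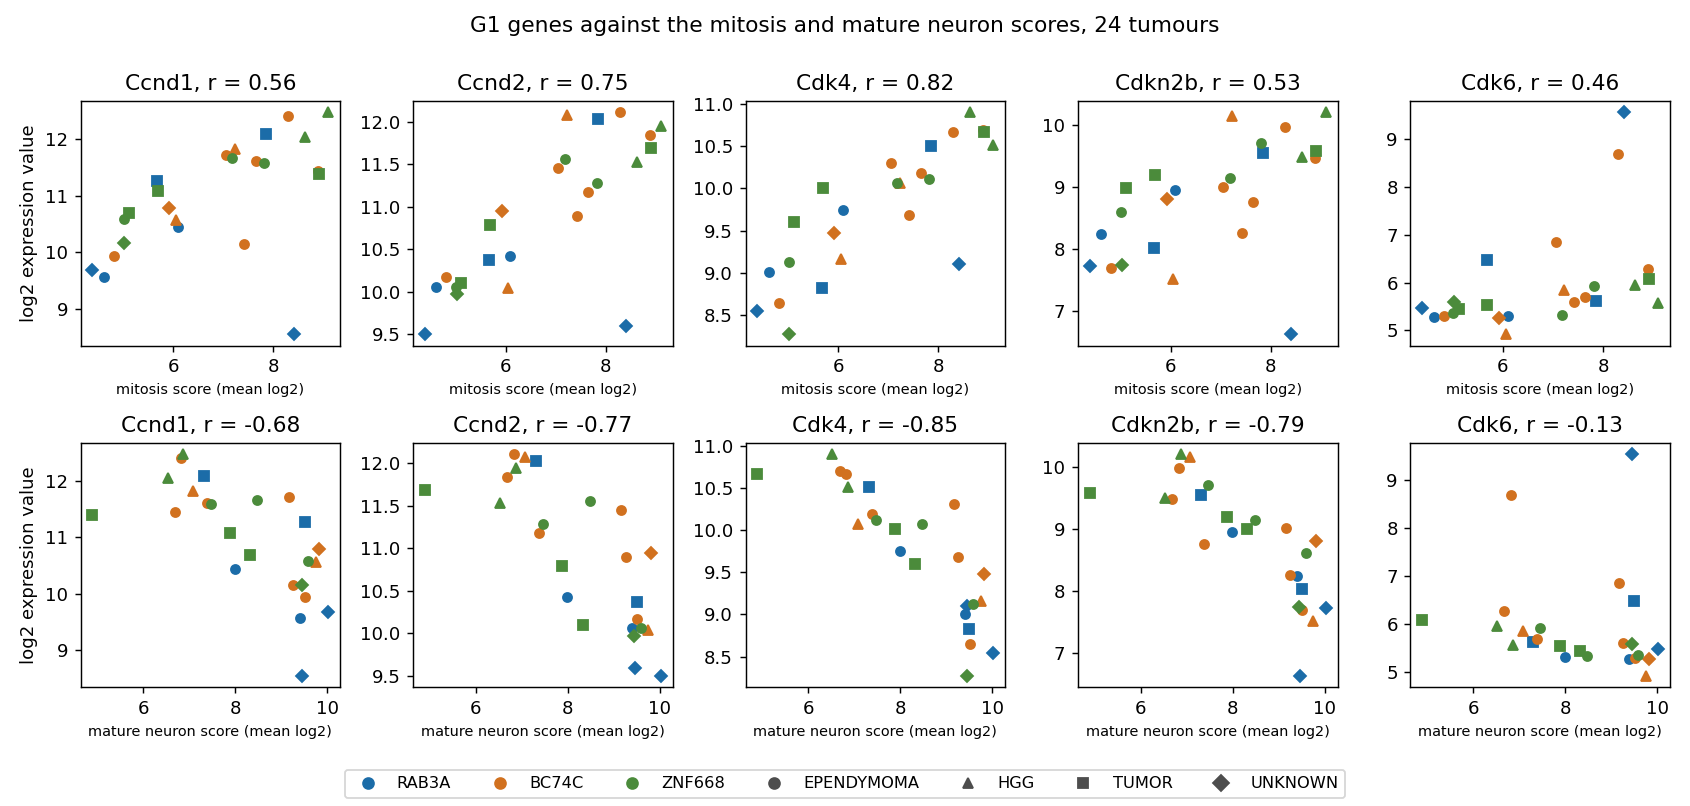
Log2 expression value (y axes, each with its own scale) of Ccnd1, Ccnd2, Cdk4, Cdkn2b and Cdk6 against the mitosis score (top) and the mature neuron score (bottom), both mean log2 values, in 24 tumours coloured by class gene and shaped by tumour label. Cdk4 follows both scores (r of 0.82 and -0.85), and 1 RAB3A tumour with a mitosis score of 8.41 lies far below the others for Ccnd1 and Cdkn2b.

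Between the genes themselves, 22 of 45 pairs passed an adjusted permutation p of 0.05. How often pairs of other genes pass was not tested, so the count does not set these genes apart from others. Among the genes described here, Ccnd1, Ccnd2, Cdk4 and Cdkn2b formed the closest group. Pearson's r was 0.88 for Ccnd1 with Ccnd2 and for Ccnd2 with Cdk4, 0.87 for Cdkn2b with Ccnd1 and with Ccnd2, 0.83 for Cdkn2b with Cdk4 and 0.79 for Ccnd1 with Cdk4. Spearman's rho of these 6 pairs was between 0.82 and 0.89, and adjusted permutation p was 6.43e-05 for each, resting on the smallest p that the permutations can give. With the 2 most extreme values of the first gene left out, r was between 0.83 and 0.88 for the 6 pairs. Cdkn2c joined Cdk4 (r = 0.80, rho 0.79) and Ccnd3 (0.74, rho 0.62).

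Cdkn2a, at background, passed with 0 of the 9 others, and its 9 r values ran from -0.26 to 0.002. Cdk6 also passed with 0 of the 9 by r, and by rank with Ccnd3 (rho 0.50) and Cdk4 (rho 0.48), with adjusted permutation p of 0.0317 and 0.0405. Its r with Ccnd1 and Cdkn2b turned on RAB3A replicate 5, the tumour left out after seeing the data. Ccnd1 with Cdk6 had r = -0.06 (rho 0.42) over 24 tumours, 0.54 without that tumour (adjusted permutation p = 0.00957), 0.60 in the 18 elw tumours and -0.74 in the 6 mmr tumours. Cdkn2b with Cdk6 likewise had r = -0.10 over all tumours (rho 0.35) and 0.42 without RAB3A replicate 5.

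Among the 13218 tested genes, the most similar were sought for each of the 8 genes whose means exceeded the 95th percentile of the organ-restricted genes. Similarity was Pearson's r over 24 tumours, given here with no test, and genes named from predictions or clones were passed over. Cdk4 was most like Hdac2, Banf1 and Skp2 (0.95 each). Cdkn2b was most like Hectd2, Angpt2 and Dennd2a (0.91 to 0.92), Ccnd1 like Ccnd2, Nme4 and Angpt2 (0.88 each), and Ccnd2 like Pimreg, Cenpv and Cdk4 (0.88 to 0.90). Ccnd3 was most like Casp2, Bcl10 and Trib1 (0.88 to 0.91), and Cdkn2c like Txnrd1, Nono and Ints14 (0.86 to 0.88). Rb1 had Vcl, Lpcat3 and Crtc3 (0.80 to 0.84), and Cdkn1b had Ccs, Mmgt1 and Tex261 (0.76 to 0.79). The values share arrays and their normalization.

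The wider pathway was read from 8 further lists with 58 genes, of which 55 were measured and 54 tested. Limma called 0 of 54 genes in each of the 5 comparisons after adjustment. Of all genes it called 0.0757% for RAB3A minus ZNF668, 0.303% for BC74C minus ZNF668 and 0% in the others. At an unadjusted p under 0.05 it called 3 of 54 for RAB3A minus ZNF668, beside 9.21% of all genes, 3 for RAB3A minus BC74C, beside 8.21%, and 0 for BC74C minus ZNF668, beside 6.88%. It called 1 of 54 for HGG minus EPENDYMOMA, beside 1.73% of all genes, and 16 of 54 for the difference of that contrast between class genes, beside 8.16%.

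Replication genes that E2F switches on, such as Mcm2, Pcna and Rrm2, mostly differed in 1 direction. In BC74C minus ZNF668 they did not, with 12 higher and 7 lower. All 19 tested had lower means in RAB3A than in ZNF668 (median difference -0.50, from -1.06 to -0.04) and than in BC74C (-0.49, from -1.27 to -0.04). These comparisons share the RAB3A tumours, and of all 13218 genes 7429 and 7406 were lower. All 19 had a positive HGG minus EPENDYMOMA difference (median 0.49), beside 6630 of all genes. The genes share tumours and arrays, so the 19 signs are not separate observations. Limma called 0 of 19 in each of these comparisons, and also 0 at an unadjusted p under 0.05. Of all genes, limma gave 9.21% under that p for RAB3A minus ZNF668 and 8.21% for RAB3A minus BC74C. For BC74C minus ZNF668 the share was 6.88%, and for HGG minus EPENDYMOMA 1.73%. The median over all genes was -0.04 in RAB3A minus both other class genes and 0.00 in HGG minus EPENDYMOMA. The HGG minus EPENDYMOMA difference of these genes was lower in BC74C than in ZNF668 for 19 of 19 (median -2.16), beside 6727 of 13218 genes. Of the 19, 7 had an unadjusted p under 0.05 in limma, beside 8.16% of all genes, and 0 passed after adjustment.

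Single genes at the ends of the 8 lists are given by their values, since none passed. For RAB3A minus ZNF668 these were Cdk2, the kinase that acts after CDK4 and CDK6, at -0.92 (SE 0.41), Skp2, part of the ligase that degrades the Cdkn1b product, at -0.86 (SE 0.41), Fbxo31, also a ligase subunit, at 0.70 (SE 0.34), and Cbx7, a Polycomb protein that represses the Cdkn2a locus, at 0.72 (SE 0.32). Adjusted p in limma was 0.534, 0.536, 0.541 and 0.534. Cdk2 and Cbx7 were also at the ends for BC74C minus ZNF668, which shares the ZNF668 tumours, at -0.54 and 0.55, with Fbxo4, another ligase subunit, at -0.27 and the activator gene E2f3 at 0.22. For RAB3A minus BC74C they were E2f5 at -0.55, E2f3 at -0.35, the pocket protein gene Rbl2 at 0.30 and the CIP/KIP inhibitor gene Cdkn1c at 1.04 (SE 0.43), with adjusted p in limma from 0.514 to 0.612.

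For HGG minus EPENDYMOMA the genes at the ends were E2f4 at -0.22, Cdkn1a, the p53 target that inhibits CDK2, at -0.95 (SE 0.52), E2f1 at 0.48 and Ccnh, the cyclin of the CDK-activating kinase, at 0.31 (SE 0.11), each with adjusted p = 1 in limma. For the difference of that contrast between BC74C and ZNF668 they were E2f1 at -1.49 (SE 0.42), Ccne2, cyclin E2, at -2.86 (SE 0.92), E2f6 at 0.68 and Cbx7 at 1.51 (SE 0.58), with adjusted p in limma from 0.591 to 0.628.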

How the data were processed

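Total RNA of 24 mouse cortical tumours was hybridised, 1 sample per array, after biotin labelling, per the labels' protocols. The deposited values are log2 intensities, 1 per probe set, normalized by the authors before deposit; the submitters' processing notes name Partek 6.6, and the normalization method is not given in the sources used here. Arrays carry no read depth, and their number limits the precision. Of 45141 probe sets, 104 controls were left out, and 28898 had 1 gene symbol in the platform's annotation, 551 several and 15588 none; 28689 of those with 1 symbol matched RefSeq (GRCm38.p6) by gene ID. Each gene was read from its brightest probe set.

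Groups were compared with limma 3.58.1 in R 4.3.3 (intensity trend, Benjamini-Hochberg over 13218 genes, threshold 0.05): all 24 tumours for the class genes, and the 15 tumours labelled HGG or EPENDYMOMA, with the class gene as covariate, for the tumour label; the fit was tested on simulated data. Correlations used 100000 permutations, or all orders exactly for the 6 mmr tumours, in Python 3.11.15 with numpy 2.4.6. The genes, lists and tests were chosen with earlier results of these data known. The text names all 10 genes and, by rule, 3 measured neighbours on each side of Cdkn2a and Cdkn2b, 3 most similar genes per gene above the 95th percentile of organ-restricted genes, and in the 8 pathway lists the called genes or else the 2 highest and 2 lowest statistics. Alternatives were the filter, the probe set, the prefix, array weights, the trend, score covariates and subsets of tumours. The labels hold no shared replicate numbers.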

Additional observations from a re-analysis of the deposited data

Results flagged for a closer look

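Of 60 groups of 4 to 9 tumours examined for the 10 genes, 6 held 1 tumour whose gap to the next was large against the group's range (Dixon's test); chance alone gives about 1 in 20 groups. Cdkn2a was at 4.16 in BC74C replicate 4, where the next BC74C tumour was at 3.47. Rb1 was at 9.91 in RAB3A replicate 6, against 9.39 for the next RAB3A tumour, and at 9.91 in ZNF668 replicate 2 among the HGG tumours, against 9.19. Ccnd2 was at 12.03 in RAB3A replicate 3, against 10.42 for the next RAB3A tumour. Cdk6 was at 9.55 in RAB3A replicate 5, which stood apart both among the RAB3A tumours (next 6.48) and among those labelled UNKNOWN (next 5.59).

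For 3 genes both HGG tumours lay below the EPENDYMOMA mean in BC74C and above it in ZNF668. The share of all genes with this pattern was not counted. In ZNF668 replicate 8 the margin was only 0.019 for Cdkn1b and 0.028 for Cdk6. The difference of the differences was -1.89 for Cdkn2c, -0.85 for Cdkn1b and -1.24 for Cdk6. Limma's adjusted p for the difference itself was 0.591, 0.597 and 0.72, so none of the 3 passed.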

How the results depend on the processing

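No gene of the 10 passed in any alternative; the smallest limma adjusted p was 0.234 with 1 tumour left out and 0.218 otherwise. In alternatives other than leaving out 1 tumour, 450 of the genes' differences kept their sign (for Cdkn2a, moved by less than the spread between tumours) and 50 turned, all of them differences that had not passed. Of relations among genes and scores in these alternatives, 124 kept their side of the threshold and sign, 15 no longer passed, 8 came to pass and 8 turned. The cause of each turn was not tested. Over all genes, limma called 10 for RAB3A minus ZNF668, 40 for BC74C minus ZNF668, 0 for RAB3A minus BC74C and 41 for any class difference. Without the filter the count of genes called was 6 for RAB3A minus ZNF668 and 1 for RAB3A minus BC74C. With the mean of all probe sets the count of genes called was 2 for RAB3A minus BC74C. There RAB3A minus ZNF668 was 0.13 for Ccnd3, and r was 0.31 for Cdkn2a and Cdkn1b, 0.058 for Cdkn2a and Ccnd3, -0.0040 for Cdkn2a and Cdk6, -0.0072 for Cdkn1b and Ccnd3 and -0.028 for Cdkn1b and Cdk6. In the elw tumours the count of genes called was 21 for RAB3A minus ZNF668. There RAB3A minus ZNF668 was -0.053 for Cdkn2c, and RAB3A minus BC74C was -0.044 for Ccnd3 and -0.36 for Cdk6. There HGG minus EPENDYMOMA was -0.56 for Cdkn2b, 0.044 for Cdkn1b, 0.017 for Rb1 and -0.40 for Ccnd2, and r was -0.029 for Cdkn2a and Cdk6, 0.53 for Cdkn2b and Cdk6 and 0.60 for Ccnd1 and Cdk6. With array weights the count of genes called was 21 for RAB3A minus ZNF668, 130 for BC74C minus ZNF668 and 109 for any class difference. There RAB3A minus BC74C was -0.016 for Ccnd3 and -0.22 for Cdk6, and HGG minus EPENDYMOMA was 0.39 for Cdkn2c, 0.022 for Cdkn1b and 0.031 for Ccnd3. With both scores as covariates the count of genes called was 0 for RAB3A minus ZNF668 and 2 for RAB3A minus BC74C. There RAB3A minus ZNF668 was 0.016 for Rb1 and 0.13 for Ccnd3, and BC74C minus ZNF668 was 0.059 for Cdkn2b, 0.13 for Ccnd1 and 0.14 for Cdk4. There RAB3A minus BC74C was 0.13 for Cdkn2c, and HGG minus EPENDYMOMA was -0.074 for Cdkn2b, -0.10 for Ccnd2 and -0.11 for Cdk4. With only the compared class genes the count of genes called was 0 for RAB3A minus ZNF668. In EPENDYMOMA tumours alone the count of genes called was 0 for RAB3A minus ZNF668 and 0 for BC74C minus ZNF668. There RAB3A minus ZNF668 was 0.041 for Rb1 and -0.25 for Cdk6, and BC74C minus ZNF668 was 0.26 for Cdk4. There RAB3A minus BC74C was 0.080 for Cdkn2c, -0.19 for Ccnd3 and -1.11 for Cdk6. In the mmr tumours, also chosen after seeing the data, the count of genes called was 0 for RAB3A minus ZNF668 and 0 for BC74C minus ZNF668. There RAB3A minus ZNF668 was -0.056 for Cdkn1b, 0.53 for Rb1 and 0.60 for Ccnd3, and BC74C minus ZNF668 was 0.98 for Cdkn2b, 0.081 for Rb1, 0.48 for Ccnd1, 0.41 for Ccnd3 and 0.25 for Cdk4. There RAB3A minus BC74C was 0.070 for Cdkn2c. Without RAB3A replicate 5 as well, the mmr tumours gave 0 genes called for RAB3A minus ZNF668, which was 0.83 for Rb1, 0.21 for Ccnd3 and -0.44 for Cdk6, and RAB3A minus BC74C was 0.42 for Cdkn2c, 0.19 for Cdkn1b, -0.20 for Ccnd3 and -0.53 for Cdk6. Without the 2 tumours highest in Cdk6, chosen after seeing the data, the count of genes called was 0 for RAB3A minus ZNF668, 21 for BC74C minus ZNF668 and 14 for any class difference. There RAB3A minus ZNF668 was -0.012 for Cdk6, and RAB3A minus BC74C was -0.087 for Cdk6. With the prefix as a block the count of genes called was 2 for RAB3A minus BC74C and 22 for any class difference. There HGG minus EPENDYMOMA was -0.38 for Cdkn2b, 0.019 for Cdkn1b, -0.25 for Ccnd2 and -0.025 for Cdk4. Without the trend the count of genes called was 2 for RAB3A minus BC74C.

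With each tumour left out in turn, the count of genes called ran from 0 to 40 for RAB3A minus ZNF668, 25 to 63 for BC74C minus ZNF668, 0 to 4 for RAB3A minus BC74C, 15 to 61 for any class difference and 0 to 2 for the difference of HGG minus EPENDYMOMA between class genes. For RAB3A minus ZNF668 the range was -0.20 to 0.27 for Cdkn2c, -0.069 to 0.19 for Cdkn1b and -0.012 to 0.84 for Cdk6. For BC74C minus ZNF668 the range was -0.29 to 0.017 for Ccnd1, -0.25 to 0.11 for Cdk4 and -0.030 to 0.36 for Cdkn2c. For RAB3A minus BC74C the range was -0.34 to 0.065 for Cdkn2c, -0.053 to 0.21 for Ccnd3 and -0.42 to 0.57 for Cdk6. For HGG minus EPENDYMOMA the range was -0.40 to 0.37 for Cdkn2c, -0.031 to 0.56 for Cdk4, -0.065 to 0.78 for Ccnd2, -0.31 to 0.056 for Cdkn1b, -0.39 to 0.17 for Ccnd3 and -0.15 to 0.95 for Cdkn2b. For the difference of HGG minus EPENDYMOMA between class genes the range was -0.58 to 0.15 for Rb1, -2.05 to 0.60 for Cdkn2b and -2.01 to 0.030 for Ccnd2. Without RAB3A replicate 5, left out after seeing the data, r was -0.011 for Cdkn2a and Cdk6, 0.42 for Cdkn2b and Cdk6 and 0.54 for Ccnd1 and Cdk6. Array number limits precision: the HGG comparison rests on 4 tumours and the mmr tumours on 6, and Cdkn2a was below the filter. No paired analysis was possible because the labels give no replicate numbers shared between groups.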
